A study of Rattus norvegicus with 20 samples.

Results

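The proteasome genes of the rat hippocampus were examined in untreated wild-type, untreated transgenic and treated transgenic females. Members were chosen by symbol, as every gene whose name starts with Psma, Psmb, Psmc, Psmd, Psme or Psmg followed by a digit. The rule found 48 genes of the 17168 in each count table, and all 48 had reads in both tables. In the genotype comparison, 5 untreated wild-type rats (WTNT) were set against 5 untreated transgenic rats (TGNT), and in the treatment comparison 4 other untreated transgenic rats (TGNT) were set against 6 treated ones (TGTR). All 20 rats were female and 4 months old. The transgenic animals were TgF344-AD rats, a Fisher 344 line that carries human APP with the Swedish mutation (APPsw) together with a second human AD transgene, both under the prion promoter. WTNT and TGNT rats ate normal chow. TGTR rats received diazoxide (DZ, 10 mg/kg per day), an opener of ATP-sensitive potassium channels, and dibenzoylmethane (DIB, 200 mg/kg per day), a β-diketone, in their chow from day 52 of age. Each rat gave 1 library, the labels name no shared batch, and no wild-type rats on treated chow were sequenced among the samples used here.

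The proteasome is the protease that degrades most ubiquitin-tagged proteins. Its core particle is a barrel of stacked alpha rings, encoded by Psma genes, and beta rings, encoded by Psmb genes, whose subunits β1 (Psmb6), β2 (Psmb7) and β5 (Psmb5) cut peptide bonds. A regulatory cap on the end of the barrel, with a base of ATPases (Psmc) and other subunits and a lid (Psmd), binds ubiquitin chains, removes them and unfolds the substrate. Under interferon the core's catalytic subunits β1, β2 and β5 are replaced by Psmb9, Psmb10 and Psmb8 to form the immunoproteasome. This form is known in the brain mainly from glia, and interferon also raises the activator PA28αβ (Psme1 and Psme2). The transcription factor Nrf1 (Nfe2l1) raises core and cap genes together through antioxidant response elements when proteasome activity falls.

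By class, the 48 genes comprised 9 alpha ring genes, 7 constitutive beta ring genes, 4 genes of inducible or tissue-specific beta subunits, 6 base ATPases, 3 other base subunits, 8 lid subunits, 4 activators, 3 assembly chaperones of the cap (Psmd5, Psmd9 and Psmd10), 3 assembly chaperones of the core (Psmg1, Psmg2 and Psmg4) and Psmc3ip. The last of these, a recombination factor, matches the rule by its symbol and is no proteasome subunit. Core here means the alpha and constitutive beta rings (16 genes), and cap means base and lid (17 genes). Library totals were 5848458 to 9926088 estimated counts in WTNT and 6610498 to 8117561 in TGNT rats of the genotype comparison. They were 11151973 to 13481985 in TGNT and 9215039 to 14175594 in TGTR rats of the treatment comparison. Levels are the deposited RPM values, read counts scaled to a common library size,, fold changes come from edgeR fits to the estimated counts, and each table was normalized by itself, so that levels were not compared between tables. App, which checks the genotype labels, stood at 1101 ± 47.5 RPM in WTNT and 2187 ± 122 RPM in TGNT rats (mean ± SD, n = 5 each), and the groups did not overlap. The 4 oligodendrocyte markers were lower in TGNT than WTNT rats and higher in TGTR than TGNT rats. Their summed levels overlapped in both comparisons (3994 to 9064 and 3755 to 6847 RPM, and 3542 to 5684 and 4151 to 6426 RPM). Mbp alone of the 4 had an unadjusted p under 0.05, between genotypes (log2 −0.38, p = 0.0402, edgeR, exact permutation p = 0.111). The part of these markers in the results was not tested. All 7 marker genes of hippocampal pyramidal and granule cells had reads in both tables, and 6 of the 7 were lower in TGNT than WTNT rats (median log2 fold change −0.14). Library TGTR replicate 5 stood apart, with a summed level of choroid plexus markers of 2790 RPM, against 131 RPM in TGTR replicate 6 and 1.62 to 16.9 RPM in the other 18 rats.

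The catalytic genes differ in what their promoters hold, and 3 promoters are shown as examples of the inducible elements for which the class is known: Psmb5 and Psmb8, the constitutive and the interferon-induced form of the same catalytic position, and Psmb10. The sequences are RefSeq's on GRCr8, with 250 bases before and 50 after the annotated start, and they lie at chr15:32047330-32047629 (minus strand), chr20:4656982-4657281 (minus strand) and chr19:50743243-50743542 (minus strand). Capitals mark the core of the antioxidant response element (TGACNNNGC) in Psmb5 and matches to an interferon-stimulated response element (a pair of GAAA with 2 bases of any kind between) in Psmb8 and Psmb10, read on both strands.
Psmb5: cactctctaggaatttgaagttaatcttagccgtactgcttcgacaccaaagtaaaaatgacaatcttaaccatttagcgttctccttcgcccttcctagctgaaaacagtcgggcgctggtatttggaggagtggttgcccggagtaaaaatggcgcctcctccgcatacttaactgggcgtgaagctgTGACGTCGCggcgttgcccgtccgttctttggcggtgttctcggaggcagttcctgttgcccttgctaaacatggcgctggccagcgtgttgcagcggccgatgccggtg
Psmb8: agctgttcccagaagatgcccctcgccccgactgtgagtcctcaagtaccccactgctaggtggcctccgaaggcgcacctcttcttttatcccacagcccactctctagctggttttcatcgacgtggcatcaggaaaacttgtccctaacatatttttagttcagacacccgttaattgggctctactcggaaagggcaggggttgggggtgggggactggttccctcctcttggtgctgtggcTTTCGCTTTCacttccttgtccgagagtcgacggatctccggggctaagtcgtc
Psmb10: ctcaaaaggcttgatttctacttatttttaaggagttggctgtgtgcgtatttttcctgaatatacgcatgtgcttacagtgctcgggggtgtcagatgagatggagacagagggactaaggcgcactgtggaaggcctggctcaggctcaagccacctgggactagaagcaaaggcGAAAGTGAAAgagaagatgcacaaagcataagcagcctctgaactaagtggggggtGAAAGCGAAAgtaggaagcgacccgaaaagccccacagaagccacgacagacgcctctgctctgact

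Of the catalytic genes not shown above, Psmb6 held 1 antioxidant core, and Psmb7 and Psmb9 held neither element. Promoters were found for 42 of the 48 genes. The interferon-stimulated element occurred in 7 of them (16.7%), namely Psma4, Psmb3, Psmb8, Psmb10, Psmd7, Psme2 and Psmg4, against 3.77% of all 27457 promoters and 2.97% of the 11459 promoters of genes in the tables. The antioxidant element core occurred in 8 (19.05%), namely Psma3, Psmb2, Psmb5, Psmb6, Psmd1, Psmd3, Psmd9 and Psme4, against 12.2% of all promoters and 13.998% of those of genes in the tables. An ETS core (CCGGAAG) stood in 35.7% of the members' promoters, 13.7% of those of genes in the tables and 9.22% of all. The corresponding shares were 73.8%, 53.9% and 34.9% for a GC box (GGGCGG) and 47.6%, 37.4% and 37.7% for a CCAAT box. A match is a description of the letters in these windows. The search letters were chosen after the expression values had been seen, and no test was made of these shares.

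Between WTNT and TGNT rats, none of the 48 genes was called, with both a difference of 1.5-fold or more and a Benjamini-Hochberg adjusted p below 0.05 required (edgeR quasi-likelihood test), where 0.0116% of all genes were. At an unadjusted p under 0.05 the count was 0 as well, where 3.78% of all genes with reads passed, 2.02% higher and 1.76% lower in TGNT rats. The filter on low counts that edgeR offers would have kept 46 of the 48 and left out Psmb8 and Psmb9. No member had groups that did not overlap in RPM, against 0.314% of genes above and 0.287% below. Of the 48 genes, 25 had a higher and 23 a lower fitted level in TGNT rats, and the median log2 fold change was 0.0070, against 0.0065 over all genes with reads, of which 51.9% were higher and 47.9% lower (47.5% lower among genes that pass the filter). With library size as the only scaling the split was 30 higher and 18 lower, and 44.7% of all genes were lower. A log2 fold change under 0.1 in size was found for 35 of the 48 genes, against 61.6% of the genes that pass the filter. The 95% interval of the fold change lay within 1.5-fold in either direction for 42 of the 48 genes. The plot of log2 fold changes by class shows the members grouped around 0, with the widest intervals for weakly expressed genes. Psma3l, with a mean of 284 estimated counts per rat, had a fairly wide one as well (0.798 to 1.19-fold).

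**Figure D1:**
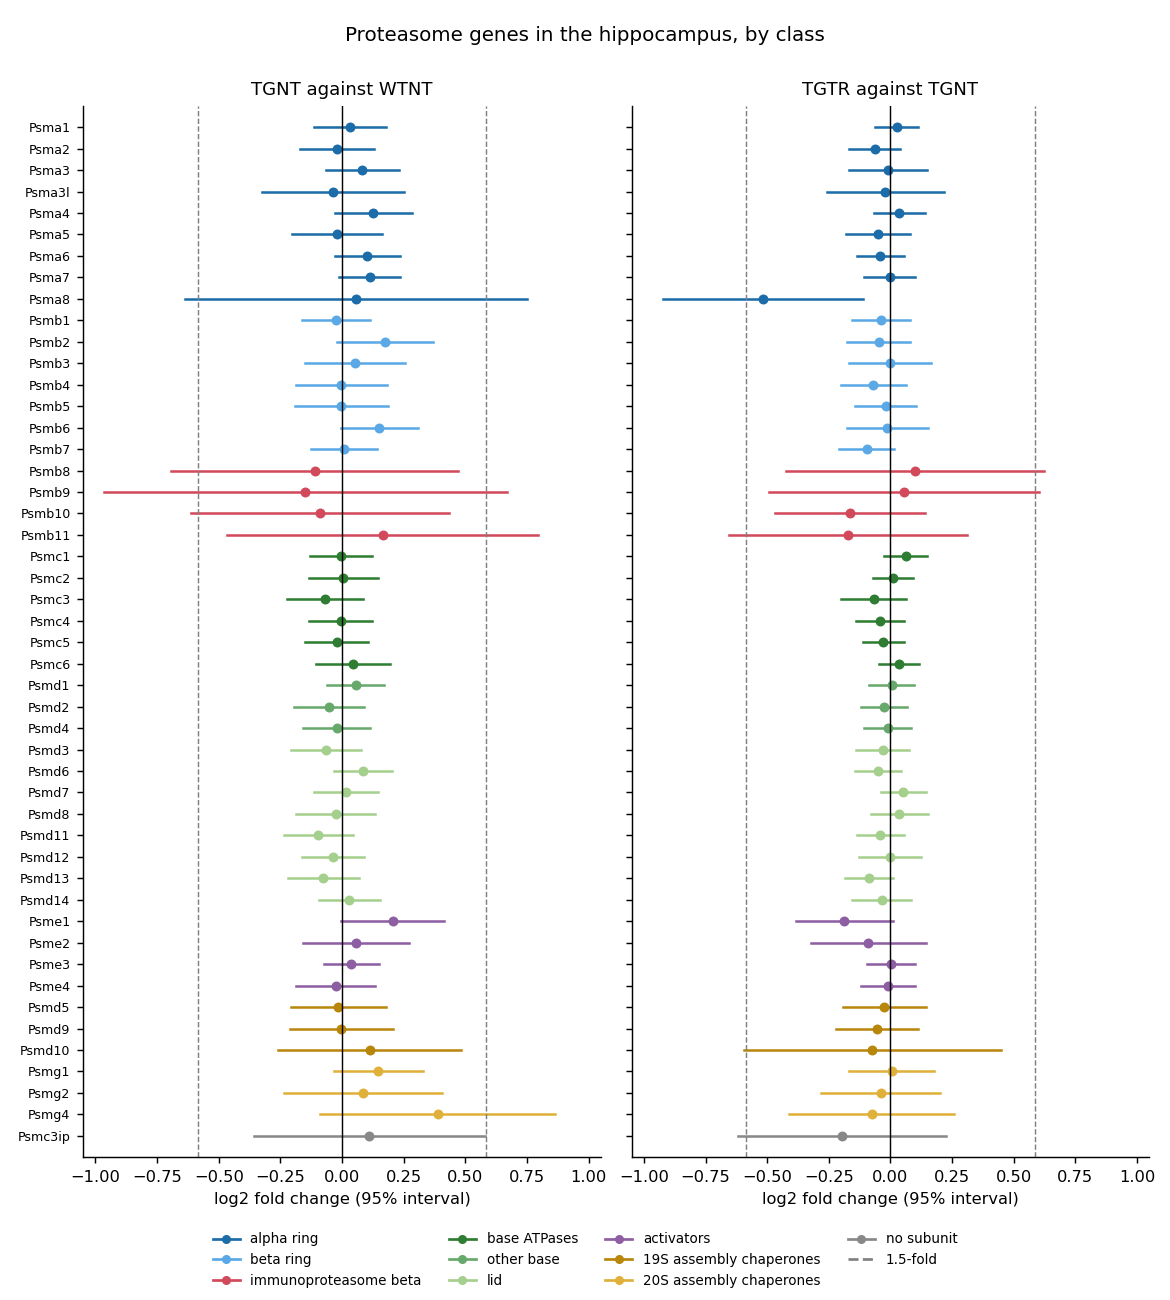
Log2 fold change of each of the 48 proteasome genes (points) with its 95% interval (lines), coloured by class, for TGNT against WTNT rats (left) and TGTR against TGNT rats (right); dashed lines mark 1.5-fold. In the left panel no gene has an interval that leaves out 0, and in the right panel Psma8 alone does.

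The 17 cap genes all lay near 0. Each had a log2 fold change under 0.1 in size, 6 higher and 11 lower, with a median of −0.021 that was 0.0046 without WTNT replicate 1, and their intervals all lay between 0.850-fold and 1.15-fold. The extremes were both lid genes, Psmd6, with 101 ± 2.38 RPM in WTNT and 106 ± 4.39 RPM in TGNT rats, and Psmd11, with 102 ± 5.23 and 95.4 ± 7.61 RPM. The ATPase Psmc6 had the highest value of its class (log2 0.045, SE 0.070) and Psmc3 the lowest (−0.069, SE 0.073). Psmd1 and Psmd2, the large scaffold subunits of the base, stood at 0.056 (SE 0.054) and −0.053 (SE 0.067). The summed cap level ranged from 1797 to 1911 RPM over the WTNT rats, and the TGNT rats (1816 to 1905 RPM) lay inside that range.

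Of the core genes, 10 of 16 were higher, with a median of 0.043 that ran from 0.014 (without WTNT replicate 3) to 0.057 (without TGNT replicate 2) when a rat was left out. Psma7, an alpha ring subunit, stood at 59.8, 57.8, 56.5, 54.1 and 54.5 RPM in WTNT and at 62.2, 63.3, 61.1, 58.1 and 59.9 RPM in TGNT rats. Thus 4 of the 5 TGNT rats lay above the highest WTNT rat (log2 fold change 0.11, SE 0.058, unadjusted p = 0.0724, adjusted p = 1.0 with edgeR, exact permutation p = 0.0159). Psma7 was chosen after its values were seen. Psma4 and Psmb2 were the highest of their rings, at 0.13 (SE 0.073) and 0.17 (SE 0.092), and neither passed the test. The alpha ring summed to 519 ± 9.82 RPM in WTNT and 538 ± 17.2 RPM in TGNT rats, and the beta ring to 370 ± 21.7 and 375 ± 8.24 RPM, and in both sums the groups overlapped.

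Among the constitutive catalytic genes, Psmb6 (β1) showed the same pattern. Its levels were 33.8, 29.9, 32.3, 31.6 and 34.9 RPM in WTNT and 33.7, 35.3, 38.9, 35.4 and 35.9 RPM in TGNT rats, with 4 TGNT rats above every WTNT rat and 1 inside their range. The log2 fold change was 0.15 (SE 0.073, unadjusted p = 0.0583, adjusted p = 1.0 with edgeR, exact permutation p = 0.0238). Psmb5 (β5) and Psmb7 (β2) had fitted differences near 0. Psmb5 stood at 61.8, 47.8, 44.8, 50.02 and 54.2 RPM in WTNT and 55.8, 54.7, 51.5, 46.2 and 48.1 RPM in TGNT rats, with fully overlapping groups and an interval of 0.876 to 1.14-fold. Psmb7 stood at 97.2 ± 5.08 and 97.3 ± 6.41 RPM, with an interval of 0.917 to 1.10-fold.

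The immunoproteasome genes were weakly expressed in these hippocampi. Psmb8 gave 7 to 12 and Psmb9 3 to 12 reads per rat in the genotype comparison. Psmb8 was at 1.16, 1.12, 1.52, 1.71 and 1.12 RPM in WTNT and 1.12, 1.51, 1.14, 1.33 and 1.00 RPM in TGNT rats. Psmb9 was at 0.66, 0.92, 1.52, 1.54 and 0.64 RPM against 0.37, 1.21, 1.01, 1.07 and 1.12 RPM. The groups overlapped for both genes. Psmb10 was at 3.98, 3.68, 3.17, 6.66 and 3.35 RPM in WTNT and 4.12, 4.07, 2.15, 4.40 and 4.49 RPM in TGNT rats, where WTNT replicate 4 was the highest and TGNT replicate 3 the lowest rat of its group. The log2 fold changes were −0.11 (SE 0.27), −0.15 (SE 0.38) and −0.089 (SE 0.24), and the intervals ran from 0.512-fold to 1.59-fold. Psmb11, the thymus form of β5, had 12.6 to 30.9 estimated counts per rat and a log2 fold change of 0.16 (SE 0.30). Its counts were fractions, as RSEM writes for reads it divides among genes.

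**Figure D2:**
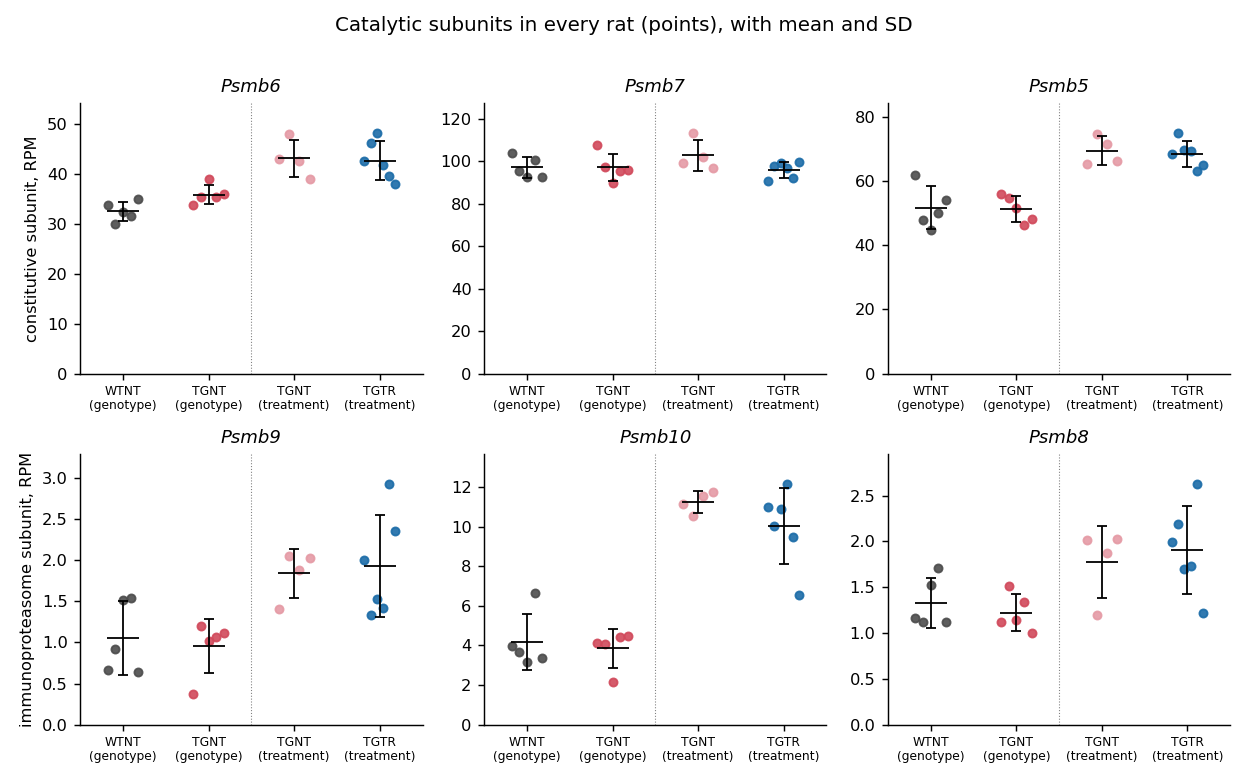
Level in RPM (axis from 0) of the constitutive catalytic genes (upper row) and the immunoproteasome gene that takes the same position (lower row) in every rat (points, replicate order from left to right), with mean and SD; the dotted line separates the tables, which were normalized apart. Groups within a table overlap for all 6 genes, and for Psmb6 4 of 5 TGNT rats lie above the WTNT rats.

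As a share of the summed RPM of Psmb5, Psmb6 and Psmb7, the immunoproteasome genes came to 2.80% to 5.43% per WTNT rat and 2.39% to 3.84% per TGNT rat. These shares are of reads and not per length, so they compare rats and not amounts of the proteins. WTNT replicate 4 alone lay above the TGNT range. Of the interferon and antigen presentation genes, 14 of 15 had reads, 7 were higher and 7 lower, and 0 had an unadjusted p under 0.05. Tap1 and Tap2, which encode the peptide transporter and flank Psmb8 in the genome, stood at 2.66 ± 0.959 and 4.88 ± 0.989 RPM in WTNT and 2.95 ± 0.312 and 5.51 ± 1.24 RPM in TGNT rats. The 8 microglia markers were all higher in TGNT rats by small amounts (median log2 0.092, with sums of 257 to 279 RPM over WTNT rats and 274 to 288 RPM over TGNT rats), and their part in these values was not tested. In bulk tissue, more cells of a type and more RNA per cell cannot be told apart.

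Among the members, the activators held the lowest edgeR p of the genotype comparison. Psme1 (PA28α), which opens the core without ATP, stood at 26.5, 20.45, 27.0, 22.9 and 27.6 RPM in WTNT and 27.7, 28.2, 32.3, 26.6 and 27.5 RPM in TGNT rats. Of the TGNT rats 3 lay above every WTNT rat, 2 lay within the WTNT range, and 2 WTNT rats lay below all others (log2 fold change 0.21, SE 0.098, unadjusted p = 0.0532, adjusted p = 1.0 with edgeR, exact permutation p = 0.0476). Its partner Psme2 (PA28β), a neighbour of Psme1 in the genome with 1 gene between them, stood at 20.3 ± 1.62 and 21.0 ± 2.53 RPM (log2 0.056, SE 0.10). Psme3 (PA28γ, the nuclear activator) and Psme4 (PA200) differed by 0.037 (SE 0.053) and −0.026 (SE 0.075). By the exact permutation test of mean RPM, 4 members were higher at an unadjusted p under 0.05 (Psma7, Psmb6, Psmd6 and Psme1) and 0 lower, where 2.07% and 1.79% of all genes were. The smallest p that this test can give with 5 against 5 rats is 0.00794, the test is two-sided, and no adjustment over the members was made.

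The assembly chaperones of the core were higher in TGNT rats by 0.15 (Psmg1, SE 0.084), 0.086 (Psmg2, SE 0.15) and 0.39 (Psmg4, SE 0.22), and none passed the test. Psmg4 stood at 3.98, 3.07, 3.80, 3.07 and 3.19 RPM in WTNT and 2.87, 3.32, 4.56, 4.94 and 6.48 RPM in TGNT rats. The TGNT rats thus ran from below to well above the WTNT range, with an interval of 0.941 to 1.82-fold. Pomp, the maturation factor of the core and no member by symbol, was at 36.2 ± 3.74 and 42.3 ± 9.15 RPM (log2 0.23, unadjusted p = 0.0955, edgeR). The cap chaperones Psmd5 and Psmd9 differed by −0.015 (SE 0.090) and −0.0025 (SE 0.098), and Psmd10 by 0.11 (SE 0.17), and Psmc3ip by 0.11 (SE 0.22). Of the other ubiquitin and proteasome pathway genes, 26 of the 32 listed had reads, 18 were higher and 8 lower, and 0 had an unadjusted p under 0.05.

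Between TGNT and TGTR rats again none of the 48 genes was called, and neither was any other gene (0% of all genes, with 843 at an unadjusted p under 0.05 in edgeR, 0 and 681 in DESeq2). At an unadjusted p under 0.05, 1 member was lower and 0 higher in TGTR rats, against 2.23% lower and 3.43% higher, or 5.66% in all, of the genes with reads. The lower gene, Psma8, was also the only member whose groups did not overlap, which 0.638% of all genes did downward and 0.685% upward. The intervals of 42 genes lay within 1.5-fold, and 43 genes differed by under 0.1 on the log2 scale, against 64.2% of the genes that pass the filter on low counts, which kept all 48 here. Fitted levels were lower in TGTR rats for 36 and higher for 12 of the 48 genes, with a median of −0.030, against 49.7% of all genes lower (49.9% of those that pass the filter), 50.1% higher and a median of 0.00028. This split around 0 depended on the scaling, which moved the members and all genes alike. With library size alone, 22 members were lower and 26 higher, with a median of 0.0075. In that fit 37.0% of all genes were lower, with a median of 0.037. The members' median thus lay below that of all genes under both scalings. The split was 32 lower and 16 higher without TGTR replicate 5, 30 and 18 without TGNT replicate 2, and 39 and 9 with upper-quartile scaling, and the median was −0.018 without TGTR replicate 6. Lower in TGTR rats were all 5 neuron, all 4 astrocyte and 6 of 8 microglia markers (medians −0.045, −0.031 and −0.034). So were 6 of 7 markers of hippocampal pyramidal and granule cells (median −0.11), of which Spink8 had 0 to 4 counts. All 3 endothelium markers were higher (median 0.11). Among the markers just named only Flt1, of endothelium, had an unadjusted p under 0.05 (0.0308, edgeR). The part of these markers in the split was not tested.

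Psma8, the form of alpha ring subunit α4 known from the testis, stood at 2.02, 2.23, 1.88 and 1.75 RPM in TGNT rats and at 1.14 (lowest), 1.32 (median) and 1.66 RPM (highest) in TGTR rats. All 6 TGTR rats lay below all 4 TGNT rats. The log2 fold change was −0.52 (SE 0.19, 0.528 to 0.926-fold, unadjusted p = 0.0165, adjusted p = 0.964 with edgeR, exact permutation p = 0.00952). These levels rest on 14.9 to 25.7 estimated counts per rat, all of them fractions, and the unadjusted p was 0.0523 with DESeq2 and 0.0507 without TGNT replicate 2. In the genotype comparison Psma8 was at 2.32, 2.56, 2.41, 6.83 and 2.55 RPM in WTNT and 3.37, 5.43, 2.79, 3.20 and 2.24 RPM in TGNT rats, with overlapping groups.

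**Figure D3:**
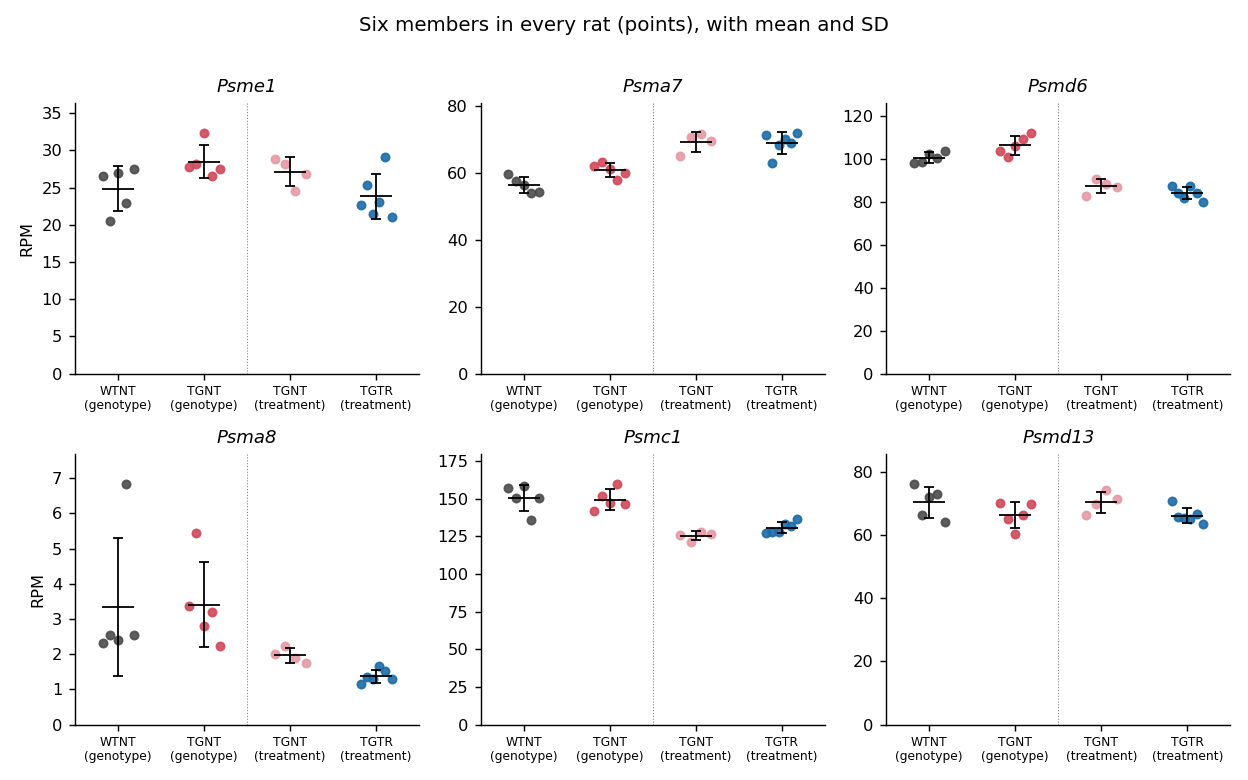
Level in RPM (axis from 0) of 6 members in every rat (points, replicate order from left to right), with mean and SD, for both tables, which were normalized apart. The 6 TGTR rats lie below the 4 TGNT rats for Psma8, 4 of 5 TGNT rats lie above the WTNT rats for Psma7, and 4 of 6 TGTR rats lie below the TGNT rats for Psme1.

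The other core genes differed by little in TGTR rats. Of the 16, 14 were lower, and all 7 constitutive beta ring genes were among them, between −0.096 and −0.00082. Psmb7 (β2) was at 99.4, 113, 102 and 96.7 RPM in TGNT and from 91.0 through a median of 97.3 to 99.9 RPM in TGTR rats (log2 −0.096, SE 0.051, unadjusted p = 0.0842, edgeR, exact permutation p = 0.105). All 6 TGTR rats lay below the TGNT median and 2 below its lowest rat. Psmb5 was at 69.4 ± 4.43 and 68.4 ± 4.09 RPM, with an interval of 0.906 to 1.07-fold. Psmb6 was at 43.1 ± 3.68 and 42.6 ± 3.88 RPM, with an interval of 0.885 to 1.11-fold. Psma7 was at 69.3 ± 2.93 and 69.05 ± 3.19 RPM, and its groups overlapped.

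The cap genes stayed within narrow bounds here too. All 17 had a log2 fold change under 0.1 in size, 6 higher and 11 lower, and their intervals all lay between 0.871-fold and 1.11-fold. The sum ranged from 1629 to 1736 RPM over the TGNT rats, and all 6 TGTR rats (1658 to 1700 RPM) lay inside that range. Psmc1, an ATPase of the base, was at 126, 121, 128 and 127 RPM in TGNT and from 128 through a median of 129.9 to 137 RPM in TGTR rats. Of the TGTR rats 4 lay above every TGNT rat (log2 0.062, SE 0.040, unadjusted p = 0.145, edgeR, exact permutation p = 0.0286). Psmd13, a lid subunit, was at 66.2, 69.9, 74.1 and 71.2 RPM in TGNT and from 63.6 through a median of 65.4 to 70.6 RPM in TGTR rats, with 4 TGTR rats below every TGNT rat (log2 −0.087, SE 0.045, unadjusted p = 0.0769, edgeR, exact permutation p = 0.0571). By the permutation test, Psmc1 was the only member higher and Psma8 the only one lower at an unadjusted p under 0.05, against 3.02% and 2.6% of all genes. The smallest p for 4 against 6 rats is 0.00952, the value of Psma8.

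**Figure D4:**
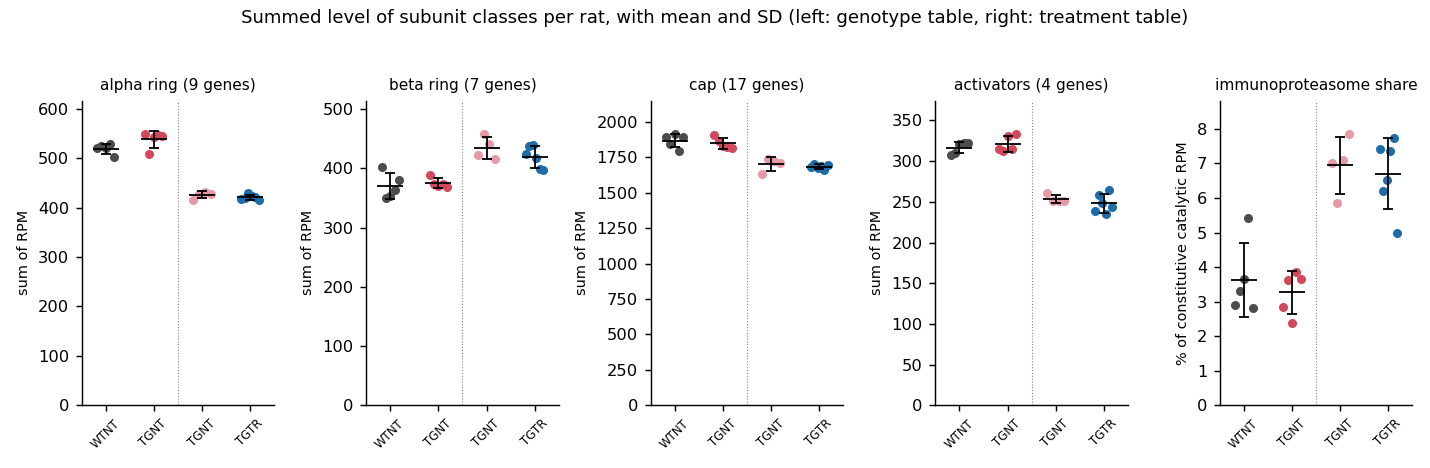
Summed RPM of the alpha ring, the constitutive beta ring, the cap and the activators, and the immunoproteasome genes Psmb8, Psmb9 and Psmb10 as a percentage of Psmb5, Psmb6 and Psmb7, in every rat (points) with mean and SD; axes start at 0, and the dotted line separates the tables, which were normalized apart. Within each table the groups overlap in all 5 panels.

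The immunoproteasome genes again showed no separation. Psmb8 was at 2.02, 1.199, 1.88 and 2.02 RPM in TGNT and from 1.22 through a median of 1.87 to 2.63 RPM in TGTR rats. Psmb9 was at 1.402, 2.06, 1.88 and 2.02 RPM and from 1.34 through 1.77 to 2.93 RPM. Psmb10 was at 11.1, 10.5, 11.6 and 11.8 RPM in TGNT and from 6.57 through 10.5 to 12.2 RPM in TGTR rats, with the TGTR rats both above and below (log2 −0.16, SE 0.14). Their share of the constitutive catalytic RPM was 5.85% to 7.84% in TGNT and 5.00% to 7.73% in TGTR rats. None of the 14 interferon and antigen presentation genes with reads had an unadjusted p under 0.05, with 8 higher and 6 lower.

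Psme1 lay in the opposite direction to the genotype comparison, at 28.9, 28.2, 24.5 and 26.9 RPM in TGNT and from 21.1 through a median of 22.9 to 29.2 RPM in TGTR rats. Of the TGTR rats 4 lay below every TGNT rat, and 1, TGTR replicate 5, lay above them all (log2 −0.19, SE 0.092, unadjusted p = 0.0624, adjusted p = 0.990 with edgeR, exact permutation p = 0.105). Without TGTR replicate 5 the log2 fold change was −0.25 and the unadjusted p 0.00577. That library held the highest Psme1, Psme2, Psmb8 and Psmb9 of the 6 TGTR rats and the choroid plexus markers named above, whose part in these values was not tested. Psme2 was at 23.6 ± 1.56 and 22.1 ± 3.58 RPM, and without that library its log2 fold change was −0.16 (unadjusted p = 0.0922, edgeR). The TGNT rats of the 2 comparisons are different rats, and the difference between the comparisons was not tested. Over the whole list, 17 of the 48 genes (35.4%) were higher in TGNT than WTNT and lower in TGTR than TGNT rats, and 19 (39.6%) were lower in both, against 25.6% and 24.2% of the 14397 genes with reads in both tables. Together these are the 36 genes (75.0%) lower in TGTR rats, against 49.7% of all genes with reads, so both shares carry that split. With library size alone 22 of the 48 (45.8%) were lower in TGTR rats, against 37.0% of all genes in that fit. A link between the comparisons was not tested.

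None of the assembly chaperones passed the test, and their extremes were −0.076 (Psmg4, SE 0.15) and 0.0051 (Psmg1, SE 0.079). Of the other pathway genes, 13 were higher and 13 lower. Ubqln4, a shuttle factor that carries ubiquitinated proteins to the proteasome, was the only one with an unadjusted p under 0.05, at 85.0 ± 6.53 RPM in TGNT and 94.4 ± 3.74 RPM in TGTR rats (log2 0.15, SE 0.054, unadjusted p = 0.0142, adjusted p = 0.964 with edgeR, exact permutation p = 0.0286). Psmc3ip differed by −0.20 (SE 0.20). The 8 genes with an antioxidant element core in their promoters split 4 higher and 4 lower between genotypes. Under treatment 1 of them was higher and 7 lower (median log2 −0.015), beside 36 of all 48 members lower (median −0.030). The 7 genes with an interferon-stimulated element split 5 and 2, and 3 and 4, with 0 at an unadjusted p under 0.05 in either comparison.

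The members varied little between rats of a group. The median coefficient of variation (CV, the SD as a percentage of the mean) was 7.20% in WTNT and 7.68% in TGNT rats, and 4.87% and 5.93% in the treatment comparison. Over all genes kept by edgeR's filter on low counts it was 11.5%, 10.8%, 8.90% and 9.29%. Over the cap genes it was 5.69% and 5.61%, and 3.56% and 3.10%. The genes kept by the filter were not matched to the members in depth, on which the error of counting depends. In the plot of CV against mean count, 41 of 48 genes in the genotype and 39 in the treatment comparison lay above the line that counting alone would give, with a median ratio to it of 1.42 and 1.3, and the weakly expressed immunoproteasome genes and Psma8 lay at the shallow end. Psma3l, a close relative of Psma3, departed upward with a CV of 24.4% in TGNT rats. Its counts were fractions in all 20 rats, and it took 26.1% to 44.3% of the reads given to the pair. The sum of the pair was 113 ± 5.81 and 116 ± 8.17 RPM between genotypes and 68.3 ± 1.88 and 67.5 ± 2.88 RPM under treatment. Counts were whole in all 20 rats for 40 of the 48 genes. They were fractions in every rat for Psma3l, Psma8, Psmb11, Psmc6, Psme2 and Psmd9. For Psma3 and Psme3 they were fractions in 9 of 10 rats of the genotype and 10 of 10 of the treatment comparison. Single values of these 8 genes are uncertain to the extent that reads were divided.

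**Figure D5:**
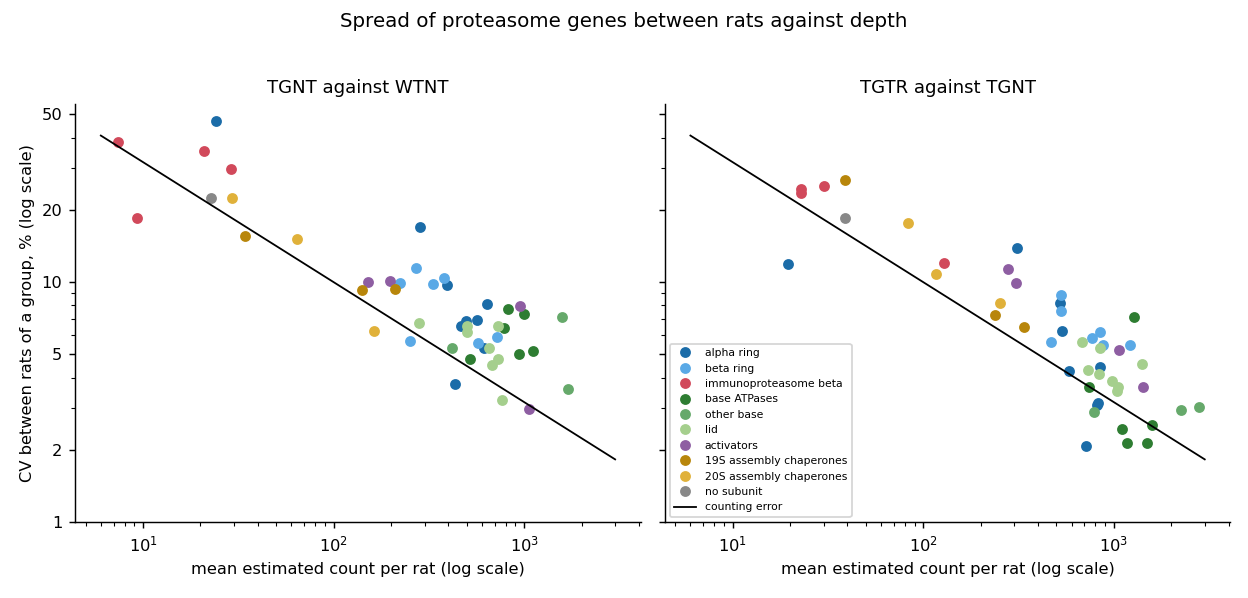
Coefficient of variation between rats, averaged over both groups of a comparison (vertical axis, percent, log scale), against the mean estimated count per rat (horizontal axis, log scale) for the 48 genes coloured by class; the line is the error of counting alone. Cap genes sit at the deep, steady end, and immunoproteasome genes at the shallow end.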

How the data were processed

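RNA of 1 hippocampus per rat was sequenced as stranded poly(A) libraries. Per the labels' processing notes, reads were handled with bcl2fastq 2.17, Bowtie2 2.1.0 and RSEM 1.2.15 on the rat build rn6. The authors deposited estimated counts per gene symbol, not normalized, and an RPM signal that they scaled with TMM factors within each table. The members and gene lists were chosen with earlier results of these data known.

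For the tests, the estimated counts were rounded, and models were fitted over all 17168 genes of a table with edgeR 4.0.16 (TMM, quasi-likelihood test, two-sided, Benjamini-Hochberg) in R 4.3.3. Called genes differed by 1.5-fold or more at an adjusted p below 0.05. Intervals of 95% came from the fit. Means of RPM were compared with exact two-sided permutation tests. Shares of all genes at an unadjusted p or without overlap are of genes with reads (14659 and 14884). Nothing says that rats came from separate litters, so p-values measure the spread between these rats. The scripts were tested on simulated data. Named members are the catalytic, immunoproteasome, activator and chaperone genes, every member at an unadjusted p under 0.05 or without overlap, the extremes of each class, and Psmc3ip. Promoters came from RefSeq (GRCr8), and no coordinates were converted. Of the 48 symbols, 47 matched RefSeq as symbols and 1 as a synonym. The labels call the tissue left and the study's methods right hippocampus. Alternatives were DESeq2 1.42.0, limma-trend 3.58.1 on log2(RPM + 1) or (RPM + 0.1), edgeR's likelihood ratio and exact tests, other normalizations and filters, robust estimation, a replicate block and leaving out each rat.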

Additional observations from a re-analysis of the deposited data

Results flagged for a closer look

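Single rats far from the others of their group were found for 6 of 132 groups of 4 to 6 rats examined over the named members, where chance alone flags about 1 in 20 groups, or 6.6 here. WTNT replicate 4 was high for Psma8 (6.83 RPM, next highest 2.56) and for Psmb10 (6.66 RPM, next 3.98). Without that rat the log2 fold change of Psma8 between TGNT and WTNT was 0.45 in place of 0.058 (unadjusted p = 0.106, edgeR), and that of Psmb10 0.12 in place of −0.089. TGNT replicate 3 was low for Psmb10 (2.15 RPM, next lowest 4.07) and high for Psme1 (32.3 RPM, next highest 28.2). Without it the log2 fold change of Psmb10 was 0.058 and that of Psme1 0.15 (unadjusted p = 0.167, edgeR). TGNT replicate 1 was low for Psmb9 (0.374 RPM, next lowest 1.01), which rests on 3 reads, and without it the log2 fold change of Psmb9 was 0.063 in place of −0.15. TGTR replicate 6 was low for Psmb1, a beta ring gene (63.1 RPM, next lowest 70.7), and without it the log2 fold change of Psmb1 was −0.0087.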

How the results depend on the processing

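No member passed the adjusted threshold under any of the 23 alternatives run in each comparison. Between genotypes, the count of members higher at an unadjusted p under 0.05 was 2 with library size only, 4 with either limma-trend fit (Psmb6, Psmd6 and Psmg1 among them), 1 with the replicate block (Psme1), and 0 to 2 when a rat was left out (2 without TGNT replicate 1 or WTNT replicate 5, 1 without TGNT replicate 2 or WTNT replicate 1 or 3). Of the 14659 genes with reads, 554 passed that p in either direction in the original fit and 555 with library size only. The counts were 713 and 710 with limma-trend (pseudocounts 0.1 and 1), 553 with the replicate block and 358 to 986 when a rat was left out. Members above without overlap numbered 1 with library size only and 0 to 1 when a rat was left out. Under treatment, members lower at an unadjusted p under 0.05 numbered 0 with DESeq2, 2 with either limma-trend fit and 0 to 3 when a rat was left out (0 without TGNT replicate 2, 3 without TGNT replicate 1, 2 without TGNT replicate 3 or 4 or TGTR replicate 1 or 5). Those higher numbered 2 with library size only (Psmc1 and Psmd7) and 1 with either limma-trend fit (Psmc1). Of the 14884 genes with reads, 843 passed that p in either direction in the original fit, 681 with DESeq2 and 1036 with library size only. The counts were 975 and 983 with limma-trend (pseudocounts 0.1 and 1). They ran from 571 (without TGNT replicate 2) to 1207 (without TGNT replicate 1) when a rat was left out. Members without overlap were 1 to 3 lower and 0 to 1 higher when a rat was left out. The shares of all genes without overlap are given above for all rats only. With library size only, the medians of all members and of the cap were 0.0075 and 0.011, against 0.037 over all genes. The median of Psmb8, Psmb9 and Psmb10 under treatment ran from −0.088 (without TGTR replicate 5) to 0.12 when a rat was left out. The cause of these shifts was not tested.

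Whether the replicate numbers pair the rats could not be settled from so few pairs. Deviations of same-numbered rats correlated at −0.22 to 0.32 between genotypes and −0.58 to 0.15 under treatment. Those of rats with different numbers correlated at −0.39 to 0.33 and −0.34 to 0.39. With the replicate block, Psme1 under treatment stood at −0.23 and passed an unadjusted 0.05, and Psma8 stood at −0.54 and did not. Of the 33 named members, 16 changed sign under at least 1 of 22 alternatives in each comparison, with values in the original fits of up to 0.17 in size. Psmb8, Psmb9, Psmb11, Psma8, Psmc3ip and Psmd10 had mean counts under 40 per rat in both comparisons, as did Psmb10 and Psmg4 between genotypes.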
